A study of Mus musculus with 6 samples.

Results

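Genes whose 3′ UTR was counted as a single long block were described in LPS-activated bone marrow-derived macrophages (BMDMs), with control cells compared to M-Δx3,4 cells that lack the RNA-binding protein AUF1 (the product of hnRNPD). From the table of raw counts, protein-coding transcripts whose 3′ UTR region had exactly 1 segment were taken, and of each gene the transcript with the most raw counts on average was kept. Genes with a mean of at least 20 raw counts over the 6 libraries and a region of at least 4000 bases were kept. They numbered 543, out of 5818 genes that met the same criteria without the limit on length, and out of 142567 transcripts in the table. Of the shorter genes, 2260 had regions under 1000 bases, 1619 from 1000 to under 2000 bases and 1396 from 2000 to under 4000 bases. The members were thus selected on their length and on their mean raw count over both groups together. A gene that was low in 1 group could therefore pass the limit on counts through the other. Of members named below, Fbxl18 had 18, 15 and 17 raw counts in M-Δx3,4 and Iffo2 had 11, 12 and 23. Kdm5a had 26, 15 and 9 in control. The fold changes of such members are not independent of the limit on counts.

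The 3 control cultures came from hnRNPDfl/fl mice and the 3 M-Δx3,4 cultures from LysCre+hnRNPDfl/fl mice, both on the C57BL/6J strain and 6–8 weeks old per the methods of the study, so that both groups carry the floxed allele and only the mutants carry Cre. LysM-Cre recombines the floxed allele in myeloid cells, and BMDMs can keep some unrecombined alleles. Bone marrow cells were differentiated for 10 days in medium conditioned by L929 cells, a fibroblast line that secretes M-CSF, and all cultures received 100 ng/ml LPS for 4 hrs. No label says whether the cultures came from separate mice, so p-values measure only the spread between these libraries.

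A 3′ UTR is the stretch of an mRNA between the stop codon and the poly(A) tail, where RNA-binding proteins and microRNAs attach. AUF1 binds AU-rich elements (AREs), which are runs of overlapping AUUUA pentamers and UUAUUUAUU nonamers that mark many cytokine and regulator mRNAs for decay or altered translation. Long 3′ UTRs offer more room for such elements, and many genes can end their mRNA at a proximal or at a distal poly(A) site. QuantSeq reads start near the poly(A) tail, so that a count tells how many mRNA 3′ ends fell in a region and not where in the region they fell. In the GENCODE vM21 annotation of the same build (GRCm38, which is mm10), 541 of the 543 transcripts were found, all of them protein-coding. In 531 of them the counted region began right after the stop codon and ran 249 bases past the annotated end of the transcript.

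The summed counts of the libraries ran from 5852374 to 9008878. The Hnrnpd transcript ENSMUST00000072750 ran from 69.6 to 177.8 normalized counts among control libraries and from 12.6 to 52.8 among M-Δx3,4 libraries, without overlap. Its log2 fold change was -2.11 (edgeR's quasi-likelihood test, unadjusted p = 0.00144, adjusted p = 0.984). A second Hnrnpd transcript, ENSMUST00000172361, had 335.9, 185.9 and 104.4 against 137.9, 124.3 and 160.5, with overlapping groups (log2 fold change -0.57, unadjusted p = 0.183). Reads from 3′ ends do not show exons 3 and 4, so these levels are no direct check of the genotype. All 10 macrophage markers were above a mean of 20 counts, and their summed level ran from 8341 to 11373 normalized counts among controls and from 6822 to 8879 in M-Δx3,4 BMDMs. Of the markers of other cells, those of T and NK cells summed to between 5.80 and 37.2, and those of neutrophils to between 387.2 and 728.3, with overlapping groups. The groups also overlapped in the markers of B cells, dendritic cells and fibroblasts. The markers of eosinophils and mast cells, none of them above a mean of 20 counts, summed to between 6.96 and 37.2 in control and between 1.53 and 5.87 in M-Δx3,4, without overlap. The part of other cells in the results was not tested.

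Sequences of the ARE nonamer are shown first, because the members with the most nonamers include a gene of the ARE-binding family itself. Each is written 5′ to 3′ on the strand of the mRNA with its nonamer in capitals and 10 bases on either side, as read from the GENCODE vM21 transcripts.
Elavl1, nonamer 1 of 8, chr8:4285788-4285816, minus strand: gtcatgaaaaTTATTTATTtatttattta
Elavl1, nonamer 5 of 8, chr8:4285766-4285794, minus strand: ttatttatttTTATTTATTtgtttgttta
Elavl1, nonamer 8 of 8, chr8:4285742-4285770, minus strand: gtttatttatTTATTTATTacttgtgagt
Ing5, nonamer 1 of 4, chr1:93820371-93820399, plus strand: aaattttagaTTATTTATTtatttattgg
D1Ertd622e, nonamer 2 of 4, chr1:97627400-97627428, minus strand: acactcttaaTTATTTATTgccaagtacc
Gsk3b, the single nonamer, chr16:38241738-38241766, plus strand: ctttttaaatTTATTTATTgatgcatgtc
Rel, the single nonamer, chr11:23737834-23737862, minus strand: ctcccagactTTATTTATTttttttagct
Atl3, the single nonamer, chr19:7537393-7537421, plus strand: gagtatgattTTATTTATTttttttaatc
All of these sites lie in the exonic 3′ UTR of the last exon. The D1Ertd622e site starts at base 18297, while 0.64% of the counts of that region, pooled over libraries, lay beyond its first 2061 bases. Gsk3b, Rel and Atl3 are shown because they are, beside Elavl1, the members with a nonamer whose p was under 0.05 between the groups. Elavl1 encodes HuR, which binds AREs and stabilises mRNAs. Its 8 nonamers overlapped or lay close together, the first of them starting at base 3794 of the 3′ UTR and the last at base 3840, within 416 bases of the annotated end.

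Of the 531 long regions with a sequence, 119 (22.4%) held at least 1 nonamer (TTATTTATT in DNA letters), against 10.8% of the regions from 2000 to under 4000 bases, 6.35% of those from 1000 to under 2000 bases and 1.78% of the shortest. On the opposite strand the long regions held it in 17.7%. Counted per 1000 bases, the long regions had 0.0567 nonamers and the regions from 2000 to under 4000 bases had 0.0566. Regions from 1000 to under 2000 bases had 0.0639 and the shortest 0.0699. In windows of equal length, the last 1000 annotated bases, the share was 5.27% in the long regions, 5.09% in those from 2000 to under 4000 bases and 5.97% in those from 1000 to under 2000 bases, and 4.90% of the long regions had it on the opposite strand of the window. The long regions thus held more nonamers per gene by their length, at a density near that of the next class and below that of the 2 shortest. The 171 nonamers were spread along the regions, with 8.19% of them in the 10% of the region next to the stop codon and 13.5% in the last 10%.

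The ARE pentamer ATTTA, which every nonamer contains, was found in 98.7% of the long regions and at a median of 9 sites each, with 1.80 per 1000 bases on the mRNA strand and 1.83 on the opposite strand. The element TGTANATA, the letters bound by Pumilio proteins, was found in 62.1% of the long regions and in 49.0% on the opposite strand. In the last 1000 bases the Pumilio letters were in 23.0% of the windows on the mRNA strand and in 12.8% on the opposite strand, and the windows of the regions from 2000 to under 4000 bases had them in 23.1% and 11.2%. The poly(A) signal AATAAA occurred in 98.3% of the long regions with a median of 4 matches, against 64.5% and a median of 1 in the shortest regions. The long regions were richer in A and T than the shortest ones, with a median GC content of 42.7% (interquartile range 39.4% to 46.8%) against 48.0%.

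The regions ranged from 4005 bases (Hinfp) to 122832 bases (D10Wsu102e), with 387 under 6000 bases and 17 of 10000 bases or more. At the limit on length, Hinfp, Dcp1a and Vma21 with 4005, 4006 and 4008 bases were just inside, and Sc5d, Pcmtd1 and Hipk2 with 3996, 3995 and 3994 bases were just outside. At the limit on counts, Phactr2, Setd7 and Phlpp2 with means of 20.3, 20.3 and 20.5 raw counts were just inside, and Rcor1, Vmn1r88 and Zbtb4, each with 19.8, were just outside. A further 1029 genes with a region of this length fell below the limit on counts. Among the 543, 11 overlapped a counted region of another gene on the same strand, and in 3 of these the other region held at least 20% of the count. Without those 3 the median log2 fold change was 0.20, as with them. Another 33 overlapped counted regions on the opposite strand, and the counts behaved as strand-specific. Of 768 regions that lie inside a region of the other strand, 383 had more counts than the region around them.

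Per 1000 bases of region, the highest mean normalized counts belonged to Serp1 (1115), which protects newly made membrane proteins in the endoplasmic reticulum, and to Eif4g2 (1066), a translation initiation factor of the eIF4G family. They were followed by S1pr2, Fnbp1, Rassf4, Ccnd2, Dnaja1, Kctd12, Rab8b and Slc6a6, the last at 275.4. Serp1 had 4975, 3168 and 4084 normalized counts among controls and 6697, 4249 and 5317 in M-Δx3,4 (4076 ± 903 against 5421 ± 1227, mean ± SD of 3 libraries). Every M-Δx3,4 library of Serp1 was above 2 of the control libraries, and the groups overlapped. S1pr2, a receptor for sphingosine-1-phosphate, had 3081, 3564 and 3142 in control and 2012, 3959 and 3609 in M-Δx3,4, with the lowest and the highest value both in the mutants. Among these 10 the log2 fold changes lay between -0.03 (S1pr2) and 0.68 (Rab8b), and none had an unadjusted p under 0.05. Per 1000 bases, the 3 longest regions had 0.43 normalized counts (D10Wsu102e), 1.94 (D1Ertd622e) and 2.01 (Hnrnpr). Serbp1, also among the 5 longest with 14026 bases, had 124.8 per 1000 bases. Division by such lengths lowers these values. The mean normalized counts of the 3 longest were 52.6, 77.0 and 39.6, against a median of 74.0 over the 543 members. Pooled over libraries, 0.64% of the D1Ertd622e counts lay beyond the first 2061 bases, and 0.81% of the Hnrnpr counts beyond the first 1084.

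The first comparison asked whether long regions changed between control and M-Δx3,4 BMDMs. In edgeR's quasi-likelihood test over all 32475 transcripts that passed the filter on low counts, which all 543 members did, 9 long regions (1.66%) were higher and 4 (0.737%) lower in M-Δx3,4 at an unadjusted p under 0.05. Over all transcripts tested, percent called was 1.59% higher and 2.54% lower, so the higher share was near the background and the lower share under it. Among the genes of the same rule under 4000 bases it was 0.967% and 2.31%. Requiring also a change of 1 or more on the log2 scale left 6 higher and 2 lower members, against 1.25% and 2.05% of all transcripts. No member passed after Benjamini-Hochberg adjustment, the smallest adjusted p being 0.984. The median log2 fold change of the 543 was 0.20 (interquartile range -0.05 to 0.41), 388 (71.5%) being above 0, against a median of -0.03 and 48.0% above 0 over all transcripts tested. It was 0.13 in the regions from 2000 to under 4000 bases, -0.00134 in those from 1000 to under 2000 bases and -0.11 in those under 1000 bases.

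**Figure D1:**
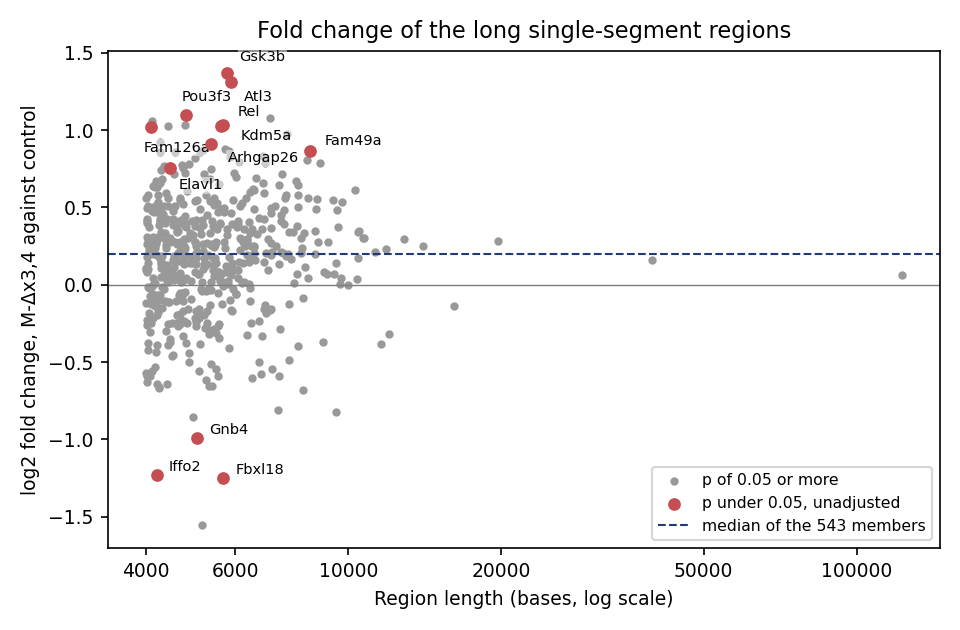
Log2 fold change of M-Δx3,4 against control (vertical axis) against region length in bases (log scale) for the long regions, 1 point per gene, with 1 of the 543 not shown. The 12 named points in red passed the threshold of 0.05 on the unadjusted p; they all lie under 10000 bases, and the dashed line marks the median of 0.20.

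The 9 higher members included regulators of signalling and of gene expression. Gsk3b, a kinase of the Wnt and insulin pathways, had 53.5, 37.8 and 16.2 normalized counts among controls and 58.7, 91.3 and 127.6 in M-Δx3,4 (log2 fold change 1.37, standard error 0.47). Atl3, an atlastin GTPase that shapes the endoplasmic reticulum, had 26.7, 17.4 and 34.8 against 70.4, 50.5 and 74.9 (log2 fold change 1.31, standard error 0.42). In neither gene did the groups overlap (two-sided exact permutation test, p = 0.1, which is the lowest value with 3 libraries a group).

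Elavl1 had 163.9, 165.5 and 243.6 normalized counts among controls and 330.6, 336.0 and 298.8 in M-Δx3,4 (log2 fold change 0.75, standard error 0.32). Fam49a, a regulator of the GTPase Rac1, had 146.4, 82.8 and 85.9 against 180.0, 172.8 and 220.9 (0.87), and Arhgap26, which inactivates small GTPases, had 77.9, 86.8 and 87.0 against 170.2, 170.9 and 133.7 (0.91). In these 3 genes too every M-Δx3,4 library was above every control library.

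In the other 4 the groups overlapped. Rel, the NF-κB subunit c-Rel, had 133.7, 54.1 and 49.9 normalized counts among controls and 183.9, 101.0 and 201.7 in M-Δx3,4 (log2 fold change 1.04), where control replicate 1 exceeded M-Δx3,4 replicate 2. Kdm5a, a histone demethylase, had a log2 fold change of 1.03. That of Fam126a, a subunit of the complex that brings a phosphatidylinositol 4-kinase to the plasma membrane, was 1.02. Pou3f3, a POU-domain transcription factor known from the nervous system, had 32.5, 17.4 and 18.6 against 28.4, 73.8 and 44.3 (1.10). Only Atl3 kept a p under 0.05 when each of the 6 libraries was left out in turn. Gsk3b lost it without M-Δx3,4 replicate 3 (log2 fold change 1.06), and Arhgap26 without M-Δx3,4 replicate 1 (0.86) or replicate 2 (0.85). Elavl1 kept it only without control replicate 3 (0.98), and Kdm5a only without control replicate 1 (1.55). Rel, Fam126a and Fam49a each kept it without control replicate 1 (1.64, 1.47 and 1.18) or M-Δx3,4 replicate 2 (1.28, 1.31 and 0.93), and Pou3f3 without control replicate 1 (1.44) or M-Δx3,4 replicate 1 (1.36).

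The lower members included Fbxl18, Iffo2 and Gnb4. Fbxl18, an F-box protein of ubiquitin ligases, had 17.4, 48.0 and 41.8 normalized counts among controls and 17.6, 14.6 and 12.99 in M-Δx3,4 (log2 fold change -1.25, standard error 0.48). Iffo2, which belongs to the intermediate filament family, had 52.3, 25.5 and 17.4 against 10.8, 11.7 and 17.6 (-1.23). Gnb4, a β subunit of heterotrimeric G proteins, had 40.7, 78.7 and 89.3 against 22.5, 29.1 and 52.7 (-0.99). In each of these 3, 1 control library reached into the range of the mutants (two-sided exact permutation test, p = 0.2 for each). Fbxl18 lost its p under 0.05 without control replicate 2 (-0.97), M-Δx3,4 replicate 2 (-1.23) or M-Δx3,4 replicate 3 (-1.15), and Iffo2 without control replicate 1 (-0.68), M-Δx3,4 replicate 1 (-1.11) or M-Δx3,4 replicate 2 (-1.15). Gnb4 kept it only without control replicate 1 (-1.25) or M-Δx3,4 replicate 3 (-1.43). The GC content of Fbxl18 and Iffo2 was 53.9% and 51.3%, above the upper quartile of 46.8% for the long regions, and that of Gnb4 was 42.7%, at their median.

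**Figure D2:**
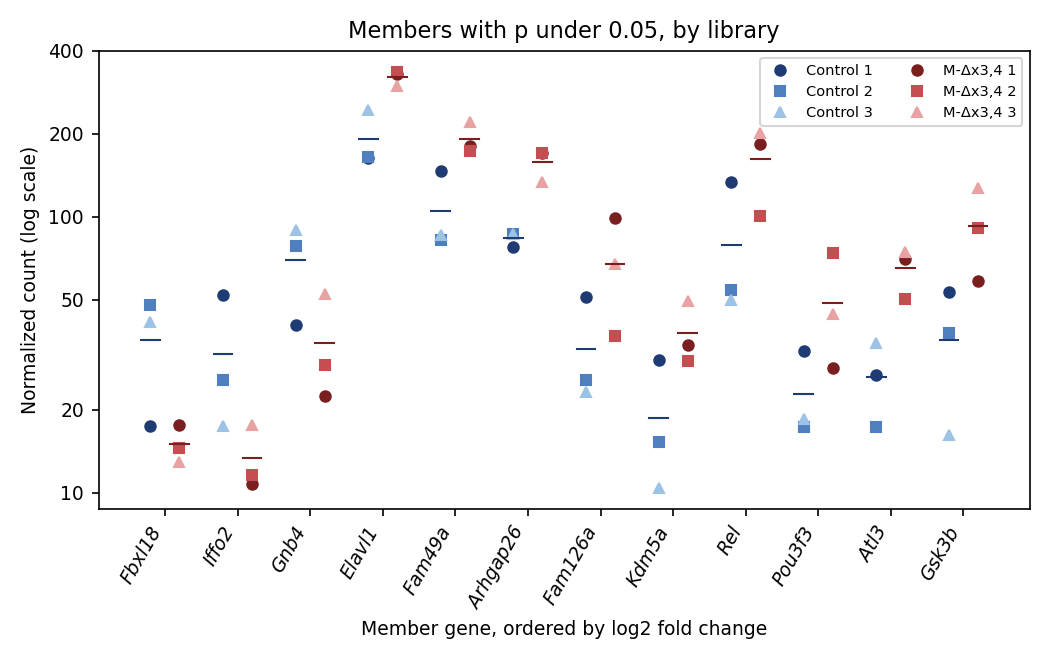
Normalized counts (log scale) of 12 of the 13 long-region genes with an unadjusted p under 0.05, ordered by log2 fold change from Fbxl18 (-1.25) to Gsk3b (1.37). Each point is 1 library, blue for control and red for M-Δx3,4, and the bars are the means of the 3 libraries; only Elavl1, Fam49a, Arhgap26, Atl3 and Gsk3b have groups that do not overlap.

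Regardless of p, the libraries did not overlap in 20 long regions that were higher (3.68%) and 11 that were lower (2.03%) in M-Δx3,4, and over all transcripts tested percent called was 4.1% and 4.78%. Both shares were under those of all transcripts, and the shorter genes of the rule had 3.87% and 4.95%. Hnrnpu, the nuclear matrix RNA-binding protein also known as SAF-A, was among the 20, with 338.2, 257.5 and 160.1 normalized counts among controls and 365.8, 427.3 and 424.1 in M-Δx3,4. Its log2 fold change of 0.69 had an unadjusted p of 0.0617. Of the other RNA regulators that the study names, Rc3h1 and Rc3h2, which encode Roquin proteins that destabilise mRNAs through stem-loops, were members. Rc3h2 had 470.7, 116.5 and 42.9 normalized counts among controls and 173.1, 153.4 and 337.8 in M-Δx3,4. Its highest and its lowest value were both in the control group.

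By function, the 22 members among RNA-binding and mRNA turnover proteins had a median log2 fold change of 0.24, with 1 of them (Elavl1) higher, none lower at an unadjusted p under 0.05 and 18 above 0, and the 50 shorter genes of the same list had a median of 0.26. Caprin1, a stress granule protein, had 531.0 ± 98.6 normalized counts among controls and 739.5 ± 182.6 in M-Δx3,4, and Celf2, a splicing and stability regulator, had 371.7 ± 191.6 and 470.9 ± 99.2. Among 32 transcription factors and chromatin proteins the median was 0.44, with Rel and Kdm5a higher and none lower, while that of the 87 shorter genes of the same list was 0.01. Foxp1, a forkhead repressor, had 654.1 ± 325.7 in control and 850.5 ± 253.6 in M-Δx3,4, and Maf, a bZIP factor of macrophages, had 478.4 ± 278.3 and 657.2 ± 278.3. Of 27 kinases, phosphatases and signalling adaptors, Gsk3b was higher and Gnb4 lower, with a median of 0.33 against 0.05 in the 110 shorter genes.

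The 29 ubiquitin ligases and proteases had a median log2 fold change of 0.18 with Fbxl18 lower, the 26 genes of membrane traffic and small GTPases 0.19 with Arhgap26 higher, the 31 solute carriers, pumps and channels 0.14 and the 15 zinc finger proteins 0.24, with no call in the last 2. The shorter genes of these 4 lists had medians of 0.14, 0.05, -0.01 and -0.06. The 10 receptors and adhesion molecules had a median of -0.01, and the 65 shorter ones had -0.04. Cd93, a receptor of phagocytes, had 559.1, 482.2 and 587.0 normalized counts among controls and 337.5, 421.4 and 393.6 in M-Δx3,4, without overlap and with a log2 fold change of -0.50 (unadjusted p = 0.118). The cytokines and secreted factors among the long regions were Igf1, Tnfsf15 and Tnfsf10, none of which passed the test. The other 349 members were in none of these lists and had a median of 0.18, with 4 higher and 2 lower.

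The second comparison concerned the spread among libraries. For each gene, the log2 normalized count in a library (with 1 added) was taken minus its mean over the 6 libraries. The median of this deviation over the 543 long regions was 0.40 in control replicate 1, -0.18 in control replicate 2 and -0.53 in control replicate 3, and 0.05, 0.03 and 0.38 in the M-Δx3,4 replicates. Control replicate 1 was the highest of the 6 libraries in 210 long regions and control replicate 3 the lowest in 283. Control replicates 1 and 3 were thus further apart than the group medians, and M-Δx3,4 replicate 3 resembled control replicate 1.

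The deviations followed region length in steps. In control replicate 3 the median went from 0.19 in regions under 1000 bases to -0.06, -0.32 and -0.53 in the successive longer classes. In control replicate 1 it went from -0.14 to 0.08, 0.27 and 0.40, and in M-Δx3,4 replicate 3 from -0.10 to 0.06, 0.20 and 0.38. M-Δx3,4 replicates 1 and 2 stayed between 0.00299 and 0.05 in all 4 classes. In finer bins, the deviation of control replicate 3 was -0.53 at 4000 to 5000 bases, -0.39 at 5000 to 6000, -0.68 at 6000 to 8000 and -0.57 at 8000 bases or more, the last bin holding 48 genes, so that it did not go steadily down within the long regions.

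**Figure D3:**
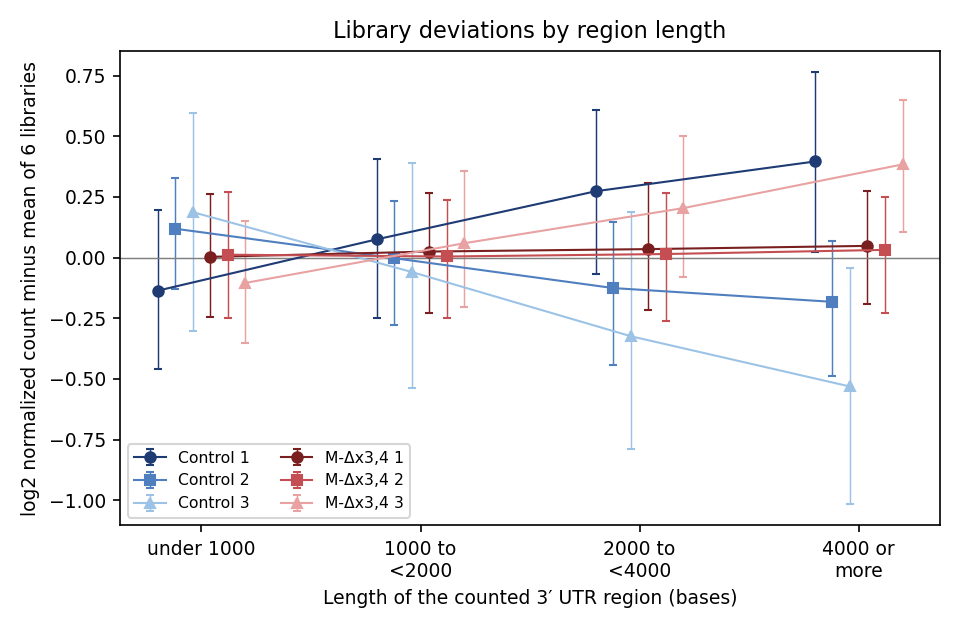
Median deviation of each library from the mean of the 6 libraries (log2 normalized count, vertical axis) in 4 classes of region length (2260, 1619, 1396 and 543 genes). Points are medians over genes and bars their interquartile range, blue for control and red for M-Δx3,4; the medians lie between -0.14 and 0.19 in the shortest class, come closest together (between -0.06 and 0.08) from 1000 to under 2000 bases, and lie between -0.53 and 0.40 in the longest class, where control replicates 1 and 3 have changed sides.

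The long regions took up 5.75%, 3.97% and 3.67% of the counts of the 5818 genes in control replicates 1 to 3 and 4.92%, 4.54% and 5.64% in M-Δx3,4 replicates 1 to 3 (4.46 ± 1.12% against 5.03 ± 0.56%). The groups overlapped, with control replicate 1 the highest of the 6. The spread of single members was also wider in control, the coefficient of variation being larger among the control than among the M-Δx3,4 libraries in 418 of 543, with medians of 0.43 and 0.25. In the shortest regions the medians were 0.34 and 0.23, and in those from 2000 to under 4000 bases 0.37 and 0.24. The coefficient was larger in control in 1603 of the 2260 shortest regions and in 1047 of the 1396 from 2000 to under 4000 bases. Over all transcripts tested it was larger in control in 20962 of 32475, with medians of 0.46 and 0.32. The wider spread in control was thus not particular to the long regions.

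GC content moved with the same libraries. Across the 5683 genes with a sequence, Spearman's rank correlation between the deviation and GC content was -0.52 in control replicate 1, 0.51 in control replicate 3 and -0.52 in M-Δx3,4 replicate 3, and between the deviation and length it was 0.35, -0.32 and 0.36. The genes share the libraries and their depth, and length and GC content were themselves related (rank correlation -0.22). Among long regions in the lowest of 3 equal classes of GC content (under 42.0%) the median difference between control replicates 1 and 3 was 1.45 on the log2 scale (236 genes), in the middle class 0.63 (219 genes) and in the highest class -0.18 (76 genes). Within each GC class the difference rose with length, from 0.49 in the shortest to 1.45 in the longest regions of the lowest class and from -0.80 to -0.18 in the highest. It was also seen at each level of counts, the long regions showing 0.84 at 200 normalized counts or more, 1.02 at 50 to 200 and 0.95 under 50. The log2 fold change between the groups had a rank correlation of -0.45 with GC content and 0.24 with length. Its median in the long regions was 0.28, 0.13 and -0.06 from the lowest to the highest class of GC content. In the lowest class the regions from 2000 to under 4000 bases had a median of 0.29. The part of GC content, length or sample handling in these differences was not tested.

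**Figure D4:**
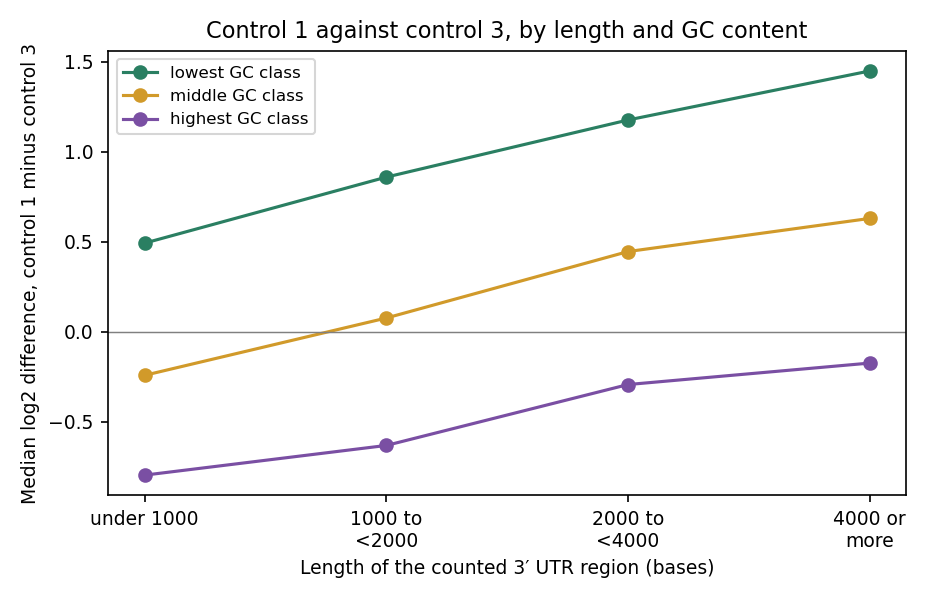
Median log2 difference between control replicate 1 and control replicate 3 (vertical axis) by class of region length, separately for 3 equal classes of GC content (5683 genes with a sequence). The difference is 1.45 for long regions in the lowest class of GC and -0.18 in the highest, and each line goes up with length.

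Single long regions showed this spread at full size. Among members with a mean of at least 100 normalized counts, the 6 with the largest coefficient of variation in control were Myo5a, Rc3h2, Lrp8, Atxn7, Pi15 and Tbl1xr1. Myo5a, a myosin motor, had 483.5, 107.3 and 45.3 normalized counts among the controls and 226.9, 156.3 and 240.7 in M-Δx3,4. Lrp8, a receptor of the LDL receptor family, had 561.4, 231.9 and 27.8 against 283.7, 301.0 and 485.3, and in all 6 genes control replicate 3 was the lowest of the 6 libraries. Control replicate 1 was the highest in 5 of them, and M-Δx3,4 replicate 3 in Atxn7. Since these 6 were picked for their spread in control, extreme values in control libraries follow in part from the choice. The 4 with the smallest variation over all 6 libraries were Pou2f2, Rab11b, Ube2k and Slc29a3. Pou2f2, the POU-domain factor Oct-2, ran from 320.8 to 389.0 and Rab11b, a GTPase of recycling endosomes, from 146.4 to 180.0. The GC content was 50.9% in Pou2f2, 46.6% in Rab11b, 48.0% in Slc29a3 and 38.2% in Ube2k, the last below the lower quartile of the long regions.

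The difference between the groups depended on which library was included. Without control replicate 1 the long regions had a median log2 fold change of 0.56, with 162 higher and 9 lower at an unadjusted p under 0.05 (percent called among all transcripts 8.17% and 6.6%), and the smallest adjusted p among them was 0.0924. In the same fit the regions from 2000 to under 4000 bases had a median of 0.34, with 304 of 1396 higher (21.8%, against 29.8% of the long regions). The median was 0.03 from 1000 to under 2000 bases (12.6% higher) and -0.19 under 1000 bases (5.22% higher). Without control replicate 3 the median of the long regions was 0.01, near that of all transcripts (0.02), with 4 higher and 5 lower. Without M-Δx3,4 replicate 3 it was 0.07. With edgeR, no fit that left out a library brought the adjusted p of a long region under 0.05.

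Long regions with and without ARE nonamers had similar medians. The 119 with at least 1 nonamer had a median log2 fold change of 0.18 (interquartile range 0.01 to 0.39), with 4 higher and none lower. The 412 without one had 0.20 (-0.06 to 0.41), with 4 higher and 4 lower. Over all transcripts tested 1.59% were higher and 2.54% lower, and whether the direction of these few calls goes with nonamers was not tested. In genes under 4000 bases the median was 0.03 in the 288 with a nonamer and -0.02 in the 4864 without. The 11 with 3 or more nonamers had a median of 0.18. They were Cdc73, D10Wsu102e, D1Ertd622e, Dusp11, Elavl1, Grk3, Ikbkg, Ing5, Rab18, Slc4a7 and Usp31, and only Elavl1 had a p under 0.05.

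A long annotated region is not always a long mRNA end. For 201 members a shorter region of the same gene, annotated from the same stop codon, lay inside the long one, and the counts beyond it were taken as the distal share. Pooled over libraries, the distal share was under 20% in 74 members, between 20% and 80% in 66 and over 80% in 61. In Dnaja1, an Hsp40 co-chaperone, and in Picalm, a clathrin assembly protein, the distal share was at most 0.039% in every library, so that the counts of their regions of 4452 and 6117 bases lay within the first 2267 and 1752 bases. In Eif4g2 it ran from 1.19% to 2.93% and in Serbp1, an mRNA-binding protein with a region of 14026 bases, from 3.20% to 9.17% beyond the first 601 bases. In contrast, Dgkh, a diacylglycerol kinase, had at least 99.3% of its counts beyond the first 745 of 11604 bases in every library, and Celf2 had from 89.4% to 91.6% beyond the first 1095 of 7630.

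Elavl1 belonged to the first kind. Beyond the first 1506 bases of its region lay 2.13%, 1.23% and 2.38% of the counts in control and 5.03%, 2.31% and 1.79% in M-Δx3,4, while the nonamers printed above start at base 3794. The counted Elavl1 ends that were higher in M-Δx3,4 thus fell almost wholly upstream of its 8 nonamers. Among the 17 members with a distal share under 20% and at least 1 nonamer, 27 of 34 nonamers lay beyond the shorter region, which held most of the counts. Of these 27, Elavl1 alone held 8. Among the 15 members with a distal share over 80% and a nonamer, 15 of 19 nonamers lay in the distal part. The distal part was most of the region in both kinds. The shorter region had a median of 1984 bases in the 74 members with a distal share under 20%, where the long region had 5097.5. In the 61 with over 80% these medians were 1192 and 5826 bases. Atl3 had its nonamer in the distal part, with 69.6%, 47.1% and 43.3% of the counts there in control and 72.2%, 84.6% and 85.7% in M-Δx3,4, from 17 to 98 raw counts per library.

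The library deviations were also taken by distal share. In control replicate 1 the median deviation was 0.43 in the 74 members with under 20%, 0.48 in the 66 between and 0.54 in the 61 with over 80%. It was -0.57, -0.50 and -0.62 in control replicate 3, and 0.35, 0.38 and 0.54 in M-Δx3,4 replicate 3. These differences between the classes of distal share were not tested.

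Of the 110 members with a nested region and at least 30 counts in every library, the distal share of 9 (8.18%) was higher and of 5 (4.55%) lower in M-Δx3,4 without overlap between the groups. Among 357 shorter genes treated in the same way percent called was 3.64% in either direction. Rab11b, whose total varied little, had 18.3%, 22.2% and 11.2% distal counts in control and 28.8%, 34.8% and 26.6% in M-Δx3,4 (17.2 ± 5.55% against 30.1 ± 4.22%; two-sided exact permutation test, p = 0.1). Arhgap26 had 64.2%, 61.2% and 68.0% against 88.5%, 81.8% and 73.7%, and for both genes every M-Δx3,4 library was above every control library. Among the rest, chosen here after their values were seen, Pcgf5, a Polycomb RING finger protein, had 5.42 ± 2.98% in control and 18.8 ± 7.02% in M-Δx3,4, and Csnk2a2, a catalytic subunit of casein kinase 2, had 79.6 ± 1.47% and 71.1 ± 1.19%. Some moves lay near the ends of the scale. Of the 5 lower, Dgkh had 99.8% in control and 99.5% in M-Δx3,4, and Mrps17 2.38% and 0.74%. Of the 9 higher, Sypl had 3.14% and 6.71%. Over the 110 members the mean distal share was higher in M-Δx3,4 in 62. The median difference from the mean of the 6 libraries was 0.66, -0.89 and -0.90 percentage points in control replicates 1 to 3. It was 0.47, -0.06 and 0.13 in M-Δx3,4, so control replicate 1 differed here too from the other controls.

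**Figure D5:**
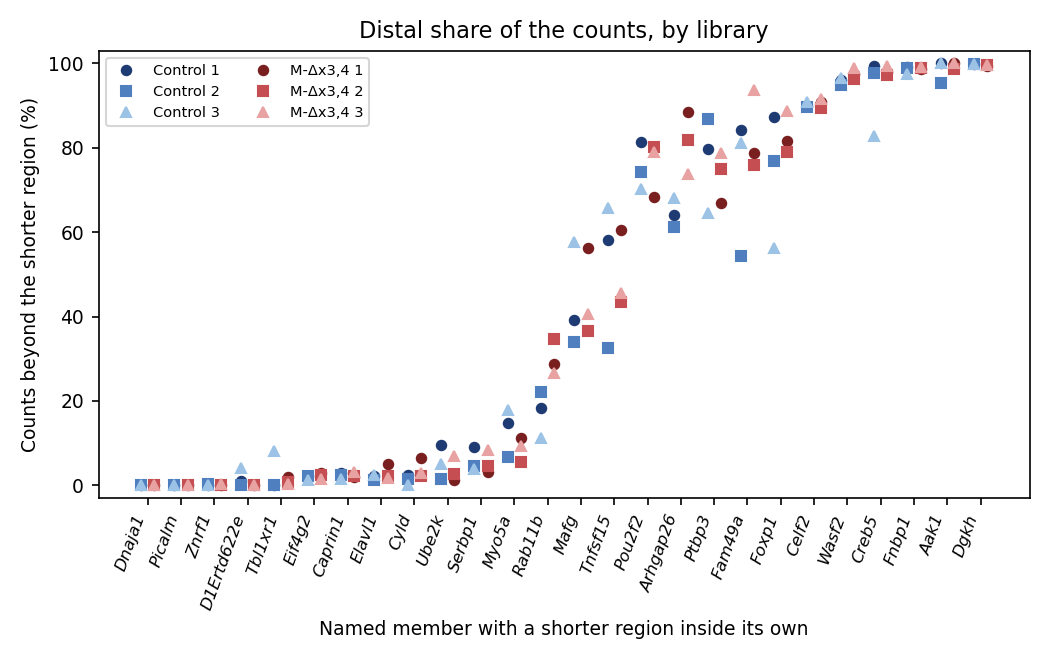
Percentage of the counts of a long region that lie beyond the longest shorter region nested in it (vertical axis), for the named members with at least 30 counts in every library, ordered by the pooled share. Points are libraries, blue for control and red for M-Δx3,4; Dnaja1, Picalm, Eif4g2 and Elavl1 sit near 0 and Dgkh near 100, while Rab11b and Arhgap26 have groups that do not overlap.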

How the data were processed

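QuantSeq 3′ mRNA libraries of 6 BMDM cultures had been sequenced on Ion Proton by the authors, aligned to mm10 with TopHat2 2.1.1 and Bowtie2 2.3.2 per the labels, and counted over 3′ UTR regions with metaseqR2. The deposited raw counts, which are not normalized, were used. A deposited table of the authors' comparison (p-values of 7 tests, fold changes and normalized values) was not used.

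Segments were added up per transcript. Size factors were medians of ratios in edgeR 4.0.16 (R 4.3.3). Transcripts entered the test if any library exceeded 4.89, the median normalized count, and groups were compared with edgeR's quasi-likelihood test and Benjamini-Hochberg adjustment over the whole table. The test was checked on simulated data. TMM, library totals, DESeq2 1.42.0, limma-voom (limma 3.58.1), other filters, 1 transcript per gene, a replicate block, other limits of the rule and each library left out were the alternatives. Summed counts ran from 5852374 to 9008878 per library, and members held a mean of at least 20 counts, where counting error alone is large. Several transcripts of 1 gene share reads, so that distal shares are differences of overlapping counts.

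Named members were the 10 highest per 1000 bases, the 5 longest, those with p under 0.05 (at most 8 a direction by smallest p, others through their list), the 3 on either side of each limit, regulators the study names, the 4 highest of each functional list, the 5 with most nonamers and the most and least variable. Others are named as examples. Not all that the rule named are printed, and 1 of the lower members is not reported here. The members and lists were chosen with earlier results of these data known. Sequences of 531 members came from GENCODE vM21, and 12 had none that could be used.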

Additional observations from a re-analysis of the deposited data

How the results depend on the processing

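The median log2 fold change of the long regions stayed above 0 in every alternative, between 0.172 at a length limit of 3000 bases and 0.284 in limma-voom with all libraries kept, and between 0.0147 and 0.557 when a library was left out. The number of higher members was 23 of 543 in limma-voom (4.24%) and 16 of 543 with no filter (2.95%). It was 15 of 1034 at a length limit of 3000 bases, 1 of 156 at 6000, and from 2 to 162 when a library was left out. In limma-voom the shares higher in the 3 shorter classes, shortest first, were 0.973%, 2.22% and 2.44%. They were 0.531%, 1.24% and 1.36% in the main fit, so the rise was not particular to long regions. Lower members numbered 13 of 1034 at 3000 bases, 0 of 156 at 6000, 2 of 366 at a mean limit of 50 counts and from 1 to 9 with a library left out. With the fold threshold, 14 were higher and 1 lower in limma-voom, 10 and 5 at 3000 bases, 0 and 0 at 6000, 3 and 0 at 50 counts, and from 2 to 120 and from 1 to 4 with a library left out. The cause of these moves was not tested, except that the limits change which genes are counted. The nonamer share of 22.4% was 5.27% in the last 1000 bases and 17.7% on the antisense strand. The search of whole regions with the 249 bases past the annotated end was not run, since the transcript sequences end there. Same-numbered libraries did not all deviate together (correlations -0.171, 0.519 and -0.322), so the numbers were not taken as pairs. The highest correlation between libraries of the 2 groups was that of control replicate 1 with M-Δx3,4 replicate 3 (0.529). With the replicate block 13 members were higher and 3 lower, and the median was 0.274. With libraries left out, the log2 fold change of Rc3h1 ran from -0.32 to 1.26 and that of Rc3h2 from -0.39 to 1.47, both turning sign without control replicate 2, control replicate 3 or M-Δx3,4 replicate 3. Of the called members named here, Iffo2, Kdm5a and Pou3f3 lost an unadjusted p under 0.05 with the block, Kdm5a also in DESeq2 and with the filterByExpr filter, and Iffo2 also in limma-voom.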
